A study of Mus musculus with 3 samples.

Results

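The clustered protocadherins are the 58 genes whose symbols start with Pcdha, Pcdhb or Pcdhg on mouse chromosome 18. They were taken by symbol from the GENCODE M21 annotation on mm10. Of them, 57 are among the 21755 protein-coding genes of the autosomes and X that serve as background, and Pcdhgb8 is classed as a polymorphic pseudogene. The alpha cluster has 14 of them, the beta cluster 22 and the gamma cluster 22. All lie on the plus strand in that order, from the start of Pcdha1 at 36930184 to the end of the gamma cluster at 37841873. The region described is chr18:36830184-37941873, which adds 100 kb on either side and is 1111690 bp long.

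Clustered protocadherins are cadherin-like adhesion proteins of the cell surface. In the alpha and gamma clusters each variable exon has its own promoter and encodes the extracellular part of 1 isoform, and it is spliced to 3 constant exons shared by the whole cluster, whereas beta genes have a single exon. In neurons, each cell uses a small and largely random choice of these promoters, which gives it a surface identity, and distant enhancers are brought to the chosen promoters by CTCF and cohesin. The C-type genes at the end of the alpha and gamma clusters are the exception, since they are not chosen at random. Glia of the central nervous system, such as astrocytes, also make clustered protocadherins.

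The study profiled Müller cells, the radial glia of the retina, by DNase-seq, which maps chromatin open to cutting by the nuclease DNase I. The cells were primary cells from healthy B6NCrl mice at postnatal day 12, males and females pooled, with no treatment named. The labels give 1 group of 3 biological replicates, with separate biosample labels and a single donor label, so the spread between them may be partly technical. They name no cell sort and point to a nuclei protocol written for cultured cells. Accessibility shows that DNA can be cut and not that a gene is transcribed, and in bulk chromatin a site cut in few cells and one cut weakly in many cannot be told apart.

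Each replicate has a list of peaks, 150 bp wide with a score of 1 to 150 whose meaning is not stated, and a list of wider hotspots. Scores are given for each replicate and ranked within it, since their scale may differ between libraries. Replicates 1, 2 and 3 had 300269, 281185 and 184544 peaks with median scores of 53, 44 and 42. Read depth is unknown because no counts come with the lists, so no interval is given for any share. Of 10 Müller glia markers, 9 had a peak at their first start site in each replicate, and the exception in all 3 was Aqp4, an aquaporin. Rod markers had a peak at 0 of 6 genes in every replicate, and neuron markers at 7, 6 and 6 of 7. Microglia markers stood apart between libraries, with peaks at 6 and 7 of 8 start sites in replicates 1 and 2 (summed score 489 and 509) and at 0 of 8 in replicate 3, where Spi1 and Cx3cr1 lacked one too. Astrocyte markers had 3 of 4 and endothelial markers 2 of 4 in each replicate. Among all protein-coding genes the share was 69.2%, 68.3% and 66.1% in replicates 1, 2 and 3, so the astrocyte and endothelial counts lay near it. No marker list was tested against that share.

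Most variable-exon promoters of the clusters carried a DNase peak in replicates 1 and 2, and under 50% did in replicate 3. A peak lay within 1 kb of the start site in 51 of 58 genes (87.9%) in replicate 1, 49 (84.5%) in replicate 2 and 27 (46.6%) in replicate 3, a mean of 73.0% ± 23.0 (SD, n = 3). Among all protein-coding genes the same share was 69.2%, 68.3% and 66.1%, so the clusters stood above the background in replicates 1 and 2 and below it in replicate 3. A peak in all 3 replicates was found at 27 members (46.6%), against 64% of all genes. Without replicate 3, 46 members had a peak in both remaining replicates, while leaving out replicate 1 or 2 kept the number at 27.

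**Figure D1:**
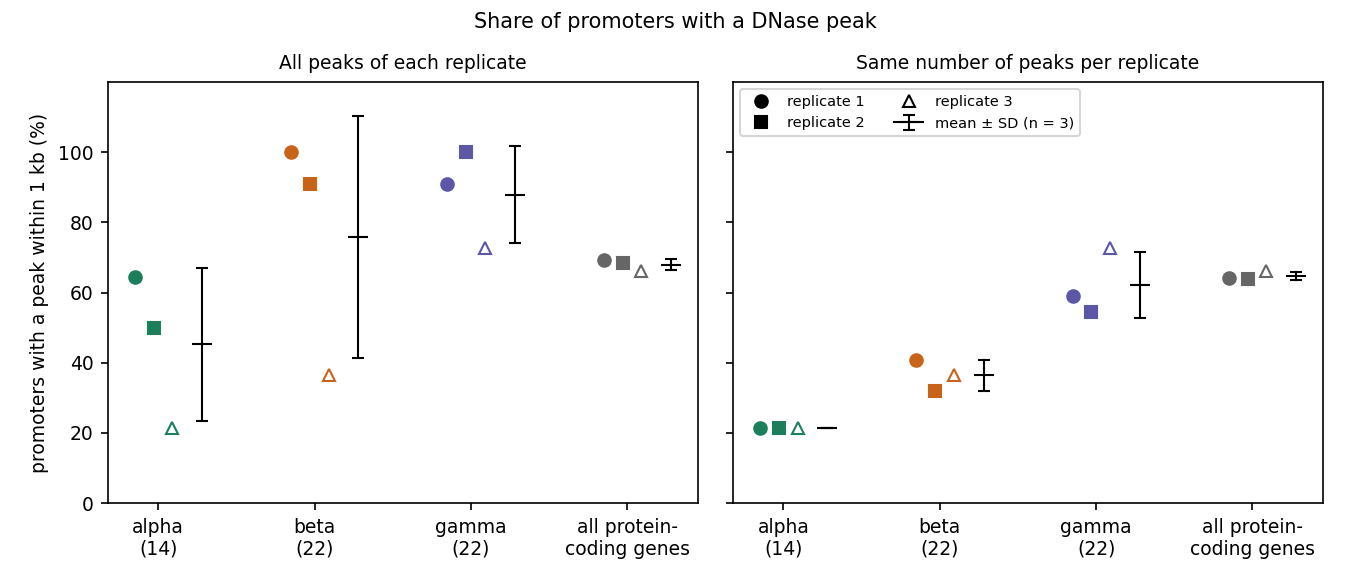
Percent of start sites with a peak within 1 kb (vertical axis) in the alpha, beta and gamma clusters and in all protein-coding genes, with all peaks (left) and with the 184544 strongest peaks of each replicate (right); symbols are replicates and bars are mean ± SD (n = 3). Replicate 3 is the lowest in every cluster on the left, but not on the right.

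The excess in replicates 1 and 2 rested on weak peaks. When the 184544 strongest peaks were taken from each replicate, 25, 22 and 27 members had a promoter peak in replicates 1, 2 and 3, a mean of 42.5% ± 4.34 (SD, n = 3). Under that rule 64%, 64% and 66.1% of all genes had one, so the members then lay below the background in all 3 replicates. It kept peaks scoring at least 44 in replicate 1 and 33 in replicate 2, and every peak of replicate 3. A promoter peak in all 3 replicates was then found at 17 members, 2 alpha, 5 beta and 10 gamma genes, against 61.4% of all genes.

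A group of 19 members had a peak in replicates 1 and 2 and none in replicate 3, which is 32.8% of the members against 3.18% of all genes. They comprised 3 alpha, 12 beta and 4 gamma genes. In replicate 1 their strongest promoter peaks scored from 22 to 60 with a median of 38, and those of the 27 members that also had a peak in replicate 3 scored from 31 to 143 with a median of 54. The corresponding medians in replicate 2 were 25 and 38. The ranges overlapped in both replicates. Replicate 3 is also the library with the fewest peaks and with no peak at the microglia markers, and the part of either in the missing peaks was not tested.

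The alpha cluster had the fewest accessible promoters. It runs through chr18:36930184-37187661, and its variable exons each begin a protein of the alpha family. A peak lay at 9 of 14 start sites in replicate 1 (64.3%), 7 in replicate 2 (50%) and 3 in replicate 3 (21.4%), a mean of 45.2% ± 21.8 (SD, n = 3). In every replicate this was below the share of all genes. At equal peak numbers the alpha count was 3 of 14 in each.

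The alpha genes with a peak in all 3 replicates were Pcdha11 and the C-type genes Pcdhac1 and Pcdhac2. Pcdhac1, which starts at 37090013, scored 66, 49 and 58 in replicates 1, 2 and 3, and Pcdhac2, which starts at 37143503, scored 60, 46 and 71. Pcdha11, at 37010712, scored 31, 26 and 19. The C-type genes were thus the strongest of the cluster in every replicate, apart from a score of 60 in replicate 1 that Pcdhac2 shared with Pcdha12. The peak of Pcdhac1 was the same 150 bp in each replicate, centred 23 bp before the start, whereas the strongest peak of Pcdhac2 lay inside its variable exon, 367, 787 and 407 bp after the start.

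Pcdha12, the last variable exon before the C-type genes, had scores of 60 and 45 in replicates 1 and 2 and no peak in replicate 3. Pcdha4 scored 31 and 19, and Pcdha2 22 and 19, in replicates 1 and 2. These 3 genes account for the alpha part of the group missing from replicate 3. Pcdha3 (31), Pcdha9 (27) and Pcdha10 (24) had a peak in replicate 1 alone, and Pcdha6 had one in replicate 2 alone (15), centred 599 bp after its start. No peak was found in any replicate at Pcdha1, Pcdha5, Pcdha7 and Pcdha8. Leaving out the C-type genes, the alpha count was 7, 5 and 1 of 12.

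**Figure D2:**
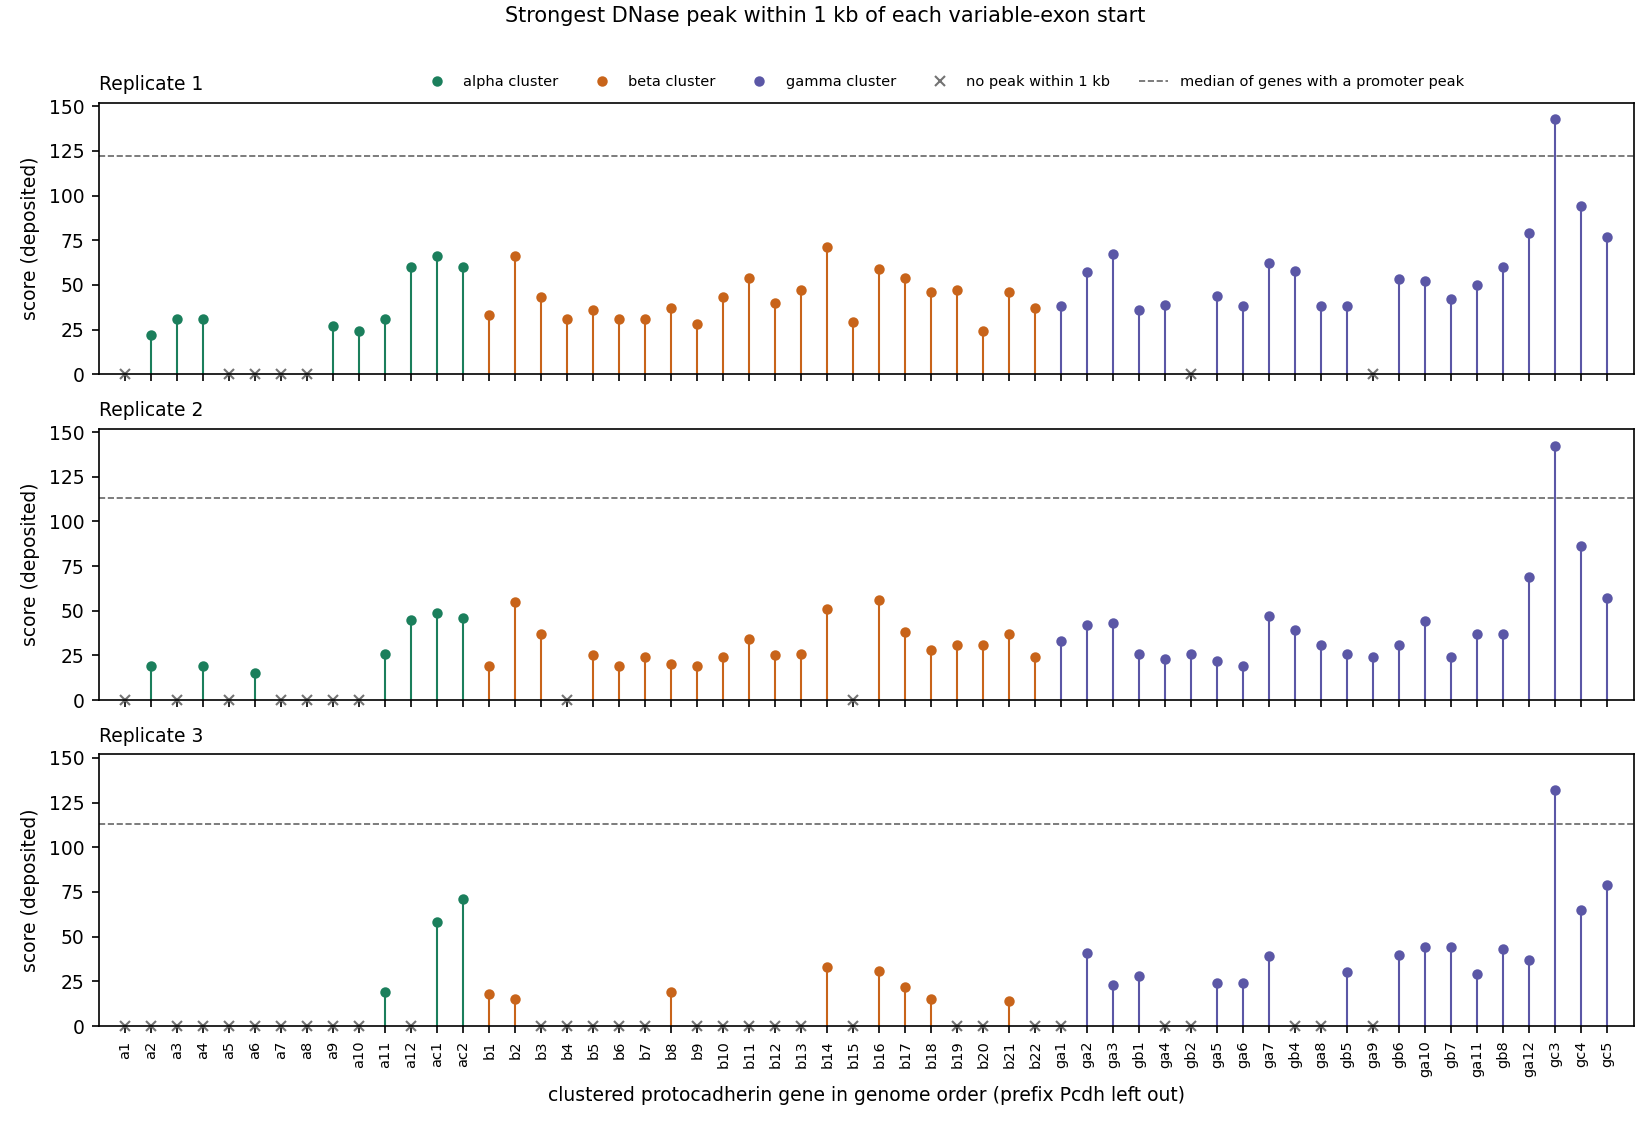
Deposited score of the strongest peak within 1 kb of each start site (vertical axis) for the 58 members in genome order, 1 panel per replicate; crosses mark members without a peak and the dashed line is the median over all protein-coding genes with a promoter peak (122, 113 and 113). Pcdhgc3 is the only member above the dashed line in any replicate.

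With all peaks, beta differed the most between libraries of the 3 clusters, and at equal peak numbers gamma did (SD 9.46 points, against 4.55 in beta and 0 in alpha). The beta genes occupy chr18:37264938-37524479, and each is a complete single-exon gene with no constant exons. A peak lay at all 22 start sites in replicate 1 (100%), at 20 in replicate 2 (90.9%) and at 8 in replicate 3 (36.4%), a mean of 75.8% ± 34.4 (SD, n = 3). At equal peak numbers the counts were 9, 7 and 8, so the high share in replicates 1 and 2 was not seen there. Beta scores ranged from 24 to 71 in replicate 1, 19 to 56 in replicate 2 and 14 to 33 in replicate 3.

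The highest-ranked beta genes were Pcdhb2, Pcdhb14, Pcdhb16, Pcdhb17 and Pcdhb21. Pcdhb2 starts at 37294812 and scored 66, 55 and 15 in replicates 1, 2 and 3. Pcdhb14, at 37447656, scored 71, 51 and 33, and Pcdhb16, at 37477814, scored 59, 56 and 31. Pcdhb2 had the second highest beta score in replicates 1 and 2 but the second lowest of 8 in replicate 3, tied with Pcdhb18 at 15, whereas Pcdhb14 and Pcdhb16 were the top beta genes of replicate 3. Pcdhb17, at 37484795, scored 54, 38 and 22, with its peak 135 to 155 bp after the start in all 3 replicates. Pcdhb21, at 37513621, scored 46, 37 and 14. A further 14 beta genes, from Pcdhb3 to Pcdhb22 in genome order, had a peak in some replicates only.

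Gamma promoters were the most often accessible when all 3 replicates were required. The gamma cluster spans chr18:37661793-37841873, with A-type, B-type and C-type variable exons named for the similarity of their sequences. A peak lay at 20 of 22 start sites in replicate 1 (90.9%), at all 22 in replicate 2 (100%) and at 16 in replicate 3 (72.7%), a mean of 87.9% ± 13.9 (SD, n = 3). It was the cluster that stayed above the share of all genes in each replicate. With the same number of peaks the counts were 13, 12 and 16, which put it below that share in replicates 1 and 2 and above it in replicate 3. A-type genes had 11, 12 and 8 of 12, and B-type genes 6, 7 and 5 of 7, so neither type was set apart in these counts.

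Pcdhgc3, the first of the gamma C-type genes, had by far the strongest promoter of all members. It starts at 37806364 and scored 143, 142 and 132 in replicates 1, 2 and 3. These scores were at percentiles 88.3, 91.7 and 81.4 of the strongest promoter peaks of all genes, and Pcdhgc3 was the only member above the median gene. The widest hotspot of the region, 2542 bp at 37805889 to 37808430, covered its start in replicate 1.

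The next C-type genes were lower. Pcdhgc4, at 37815079, scored 94, 86 and 65 with its peak 251 to 271 bp after the start, and Pcdhgc5, at 37819513, scored 77, 57 and 79. Among the other gamma genes the highest-ranked were Pcdhga12, at 37765580, with 79, 69 and 37, and Pcdhga7, at 37714764, with 62, 47 and 39. Ranked among the promoter peaks of all genes, Pcdhgc5 stood at percentile 20.8, 16.5 and 23.0, Pcdhga12 at 21.7, 22 and 6.30, and Pcdhga7 at 14.6, 12.1 and 7.0. Pcdhgc5 ranked higher in replicate 3 than in replicate 1, whereas Pcdhga12, Pcdhga7 and the other C-type genes of the cluster, Pcdhgc3 and Pcdhgc4 (28.7 and 16.6 in replicates 1 and 3), ranked lower. The 6 gamma genes with a peak in some replicates only were Pcdhga1, Pcdhga4, Pcdhgb4 and Pcdhga8, with none in replicate 3, and Pcdhgb2 and Pcdhga9, found in replicate 2 alone (26 and 24).

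All 5 C-type genes had a promoter peak in each replicate, and they kept it when the same number of peaks was taken. Their median scores were 77, 57 and 71 in replicates 1, 2 and 3, against 43, 31 and 31 over all members with a peak. The lowest C-type score was 60, 46 and 58. In replicate 3 all 5 C-type genes scored above every other member, the highest of which was 44 (Pcdhga10 and Pcdhgb7). In replicates 1 and 2 they overlapped with the strongest other members, such as Pcdhga12 and Pcdhb14.

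Set against other genes, promoter peaks of the members were weak in every replicate. The median gene with a promoter peak scored 122 in replicate 1 (quartiles 87 to 137), 113 in replicate 2 (76 to 132) and 113 in replicate 3 (82 to 129). The median member with a peak stood at percentile 7.22, 5.36 and 4.23 of those genes. Across members, Spearman's rho of the score was 0.881 between replicates 1 and 2 (46 members), 0.564 between 1 and 3 (27) and 0.535 between 2 and 3 (27), and these values are across neighbouring genes in the same libraries.

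The non-clustered protocadherins, single genes outside the region described that encode related adhesion proteins, had much higher scores. Pcdh1 and Pcdh12 lie further along chromosome 18, and the others on other chromosomes. Of 12, 11 had a promoter peak in each replicate, and Pcdh12 was the exception. Their medians were 114, 108 and 104, and Pcdhgc3 was the only member above them. Pcdh9 scored 141, 136 and 143 and Pcdh17 139, 134 and 134, and the lowest were Pcdh15 (37, 29 and 54) and Pcdh20 (55, 64 and 72).

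The clusters were compared with each other within replicates. Alpha minus beta was -35.7, -40.9 and -14.9 percentage points in replicates 1, 2 and 3 (mean -30.5 ± 13.7, SD, n = 3; exact sign-flip permutation test, two-sided, p = 0.25, adjusted 0.375 over the 3 comparisons). Alpha minus gamma was -26.6, -50 and -51.3 points (mean -42.6 ± 13.9, SD, n = 3; exact permutation p = 0.25, adjusted 0.375). Alpha was thus the lowest cluster in all 3 replicates, by more than the spread between them. With 3 replicates this test cannot give a p under 0.25, so no difference could pass a threshold. With the strongest 50% of peaks of each replicate the alpha minus beta difference turned to 6.93 points.

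Beta minus gamma was 9.09, -9.09 and -36.4 points (mean -12.1 ± 22.9, SD, n = 3; exact permutation p = 0.75, adjusted 0.75). The sign differed between replicates and the mean was smaller than their spread. Without replicate 3 the mean difference was 0. With the same number of peaks it was -25.8 points and lower in beta in each replicate (exact permutation p = 0.25).

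In replicate 3 the strongest promoter peak of several gamma genes lay further into the gene. Only the strongest peak of each gene was placed, so a change of rank between peaks also counts as a shift. Over all members with a peak, which were 51, 49 and 27, the centre of the strongest peak lay 28 and 24 bp before the start at the median in replicates 1 and 2 and 57 bp after it in replicate 3, whereas over all genes it lay 24, 24 and 12 bp before the start. In the gamma genes other than C-type, the median centre went from 17 and 18 bp before the start to 157 bp after it. There the centre lay after the start in 4 of 17 genes in replicate 1, 5 of 19 in replicate 2 and 10 of 13 in replicate 3. Of the 13 with a peak in all replicates, 7 (53.9%) had a replicate 3 peak at least 100 bp downstream of that in replicate 1, against 7.75% of all genes with a peak in all replicates. No alpha gene (0 of 3), beta gene (0 of 8) or C-type gene (0 of 5) did. Pcdhga10, for example, had its strongest peak 3 bp before the start in replicates 1 and 2 and 377 bp after it in replicate 3. At Pcdhga6 it lay 9 bp before the start in replicate 1 and 351 bp after it in replicate 3. Weaker peaks of replicate 2 lay in the downstream region of Pcdhga10 (24) and Pcdhga5 (19). Pcdhgb7 had a weaker peak at its start in replicate 3 (32, beside 44 downstream). At Pcdhga2, Pcdhga6 and Pcdhgb5 the downstream region had a peak in replicate 3 alone, and the start had none there.

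**Figure D3:**
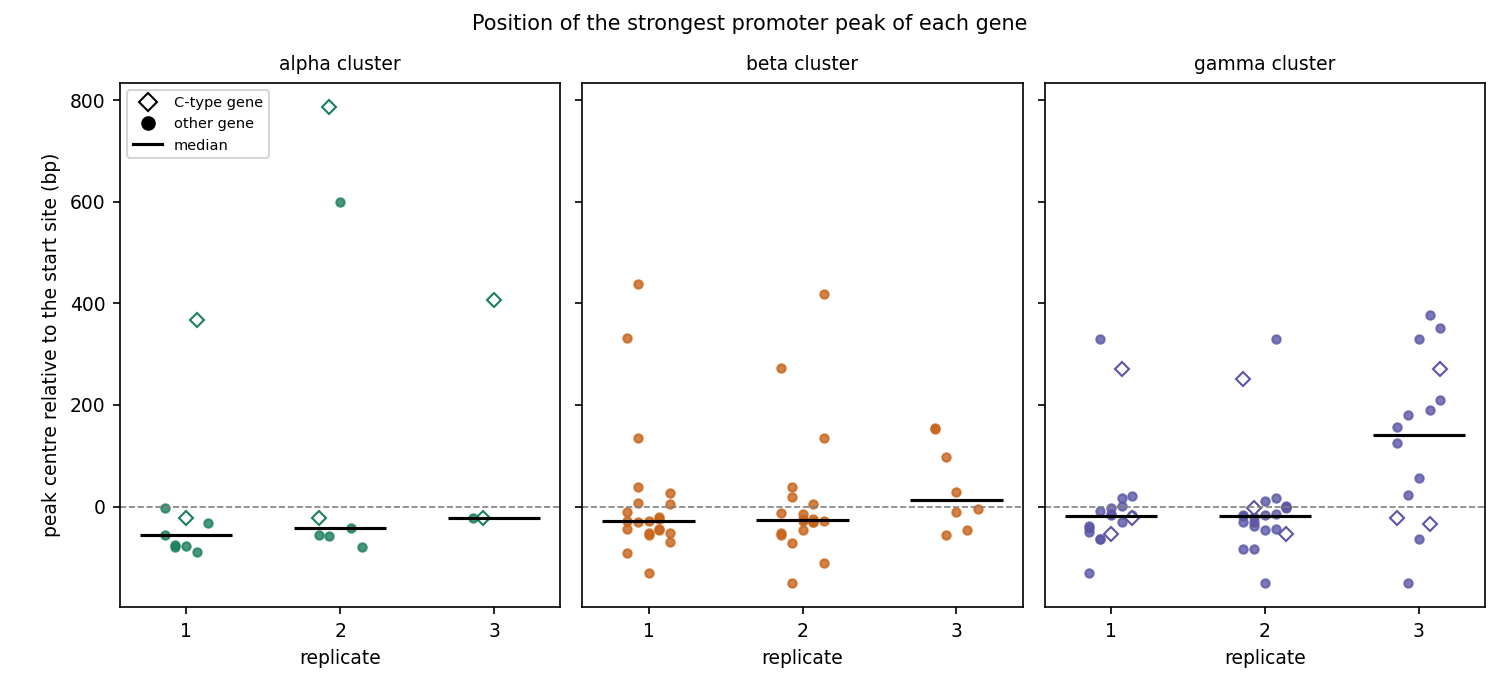
Distance of the centre of the strongest promoter peak from the start site in bp (vertical axis, positive inside the gene) for each member with a peak, by cluster and replicate; diamonds are C-type genes and black lines are medians. In the gamma panel the median of replicate 3 lies after the start and those of replicates 1 and 2 before it.

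The strongest promoter peaks of replicates 1 and 2 mostly overlapped, by at least 1 bp. Among the 27 members with a peak in all replicates, the strongest peaks of replicates 1 and 2 overlapped in 26, and those of replicates 1 and 3 in 20 (74.1%, against 89.5% of all genes). The exception between replicates 1 and 2 was an alpha gene, Pcdhac2. Both replicates had a peak in both of its regions, and the scores ranked them differently (60 and 30 in replicate 1, 41 and 46 in replicate 2). Of the 51 strongest promoter peaks in replicate 1, 21 (41.2%) overlapped any peak of replicate 3, against 91.0% over all genes. The C-type genes differed from the rest of the clusters here, with 5 of 5.

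Sequence around the start sites was examined for letters of known motifs. A consensus of CTCF, the factor that anchors the loops of this locus, was searched on both strands and was found within 300 bases of the start in 0 of 58 members, against 4.31% of all protein-coding genes. A consensus of REST, a repressor of neuronal genes, was found in 0 of 58, against 0.110%. A match required every fixed letter of the consensus, so sites with other letters were not counted and may be present. Within 1 kb, 9 members (15.5%) held a CTCF match, against 13.4% of all genes. Of these, 8 were alpha genes and the other was Pcdhga2, 782 bp before its start.

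The alpha matches sat at a nearly fixed place. In Pcdha1, Pcdha4, Pcdha6, Pcdha7, Pcdha8, Pcdha9 and Pcdha12 the match began 537 to 581 bp after the start, inside the variable exon, and in Pcdhac2 it lay 339 bp before the start. A peak overlapped the match at Pcdha4 (score 25, replicate 1), Pcdha6 (15, replicate 2) and Pcdha12 (33 and 25, replicates 1 and 2). No peak of replicate 3 overlapped any of the 8. The lack of a match elsewhere says only that these letters are not in the window.

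A further word, GGCGCTG, was chosen after seeing which words the start windows share, and its counts are therefore a description. It occurred on either strand within 300 bases of the start in 18 of 22 beta genes (81.8%), 1 of 14 alpha genes and 3 of 22 gamma genes, against 17.8% of all protein-coding genes. It had 21 matches on the coding strand, at a median of 48 bp before the start, and in 18 members one lay within 150 bp before the start. Where these 18 had a promoter peak, the word was inside the strongest peak in 17 of 18 genes in replicate 1, 14 of 16 in replicate 2 and 6 of 7 in replicate 3. These members were taken for a word close to the start, where most strongest peaks also lie, so much of this overlap follows from position. The same count was not made over all genes, and a link between word and peak was not tested.

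CpG content differed between the clusters. The median ratio of observed to expected CpG within 300 bases of the start was 0.659 in alpha, 0.407 in beta and 0.629 in gamma genes, and 0.583 over all genes. It did not order the peaks, since Spearman's rho between the ratio and the score was 0.064, -0.0018 and 0.185 across the 51, 49 and 27 members with a peak, which share libraries and neighbourhood. The members are also similar to each other in sequence. Of the 36-base words within 1 kb of a start, a median of 1.20% occurred in the window of another member, and 15 members had more than 10%. The highest share was 24.4%, at Pcdha7, which had no peak. Whether reads with several matches were kept is not given in the sources used here, and the part of this in missing peaks was not tested.

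Away from protein-coding start sites the region held 83 merged regions with a peak. Of these, 32 were found in all 3 replicates, 21 in replicates 1 and 2 only and 8 in replicate 3 only. The same shares over merged regions of the whole genome were not computed, and replicate 3 had the fewest peaks. Whether these counts are particular to the region is therefore not known. Without replicate 3 the number shared by the remaining replicates was 53, and without replicate 1 or 2 it was 34. Of the 32, 7 lay in exons, 24 in introns and 1 between genes, counting the introns of the read-through models Gm37013, Gm37388 and Gm42416 that span most of the clusters. They were unevenly spread. The alpha cluster held 7, the interval from alpha to beta 3, the beta cluster 0, the interval from beta to gamma 2, the gamma cluster 9 and the 100 kb after gamma 11.

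**Figure D4:**
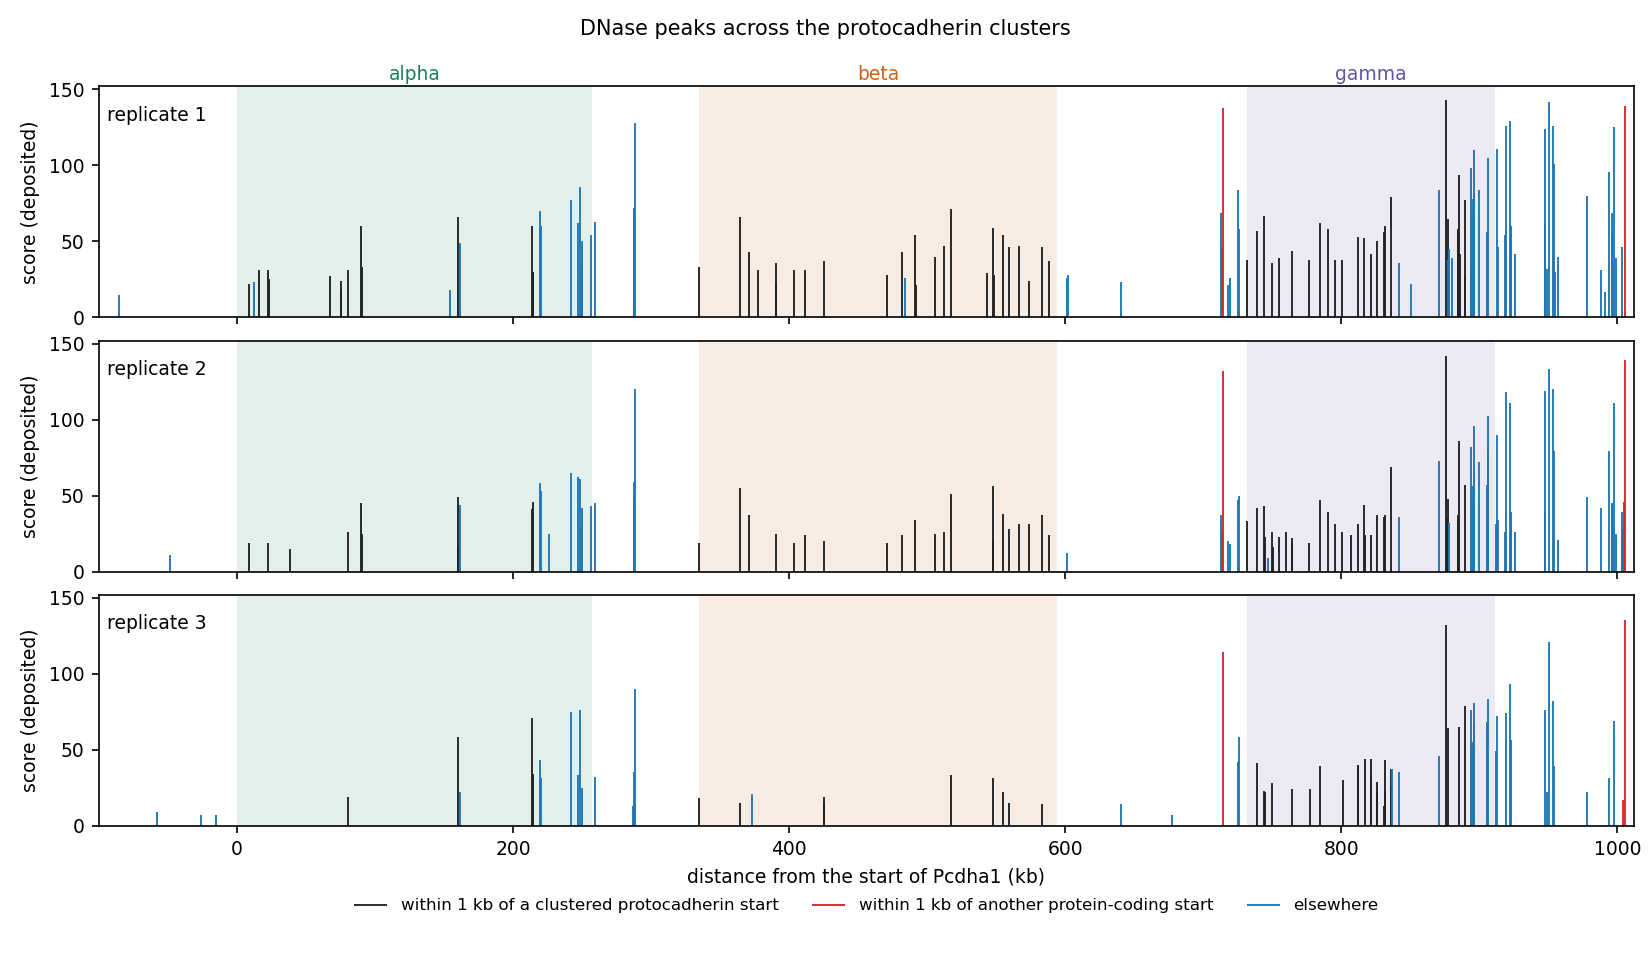
Deposited score (vertical axis) of merged peak regions along the clusters, against distance from the start of Pcdha1 in kb, with 1 panel per replicate; shading marks the clusters and colour marks whether a region is at a member start, another protein-coding start or elsewhere. Regions away from starts gather at the ends of the alpha and gamma clusters and after gamma, and the beta cluster has almost none.

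Density showed the same pattern. Peaks away from start sites numbered 7.20, 5.99 and 4.57 per 100 kb in the whole region in replicates 1, 2 and 3 (mean 5.92 ± 1.32, SD, n = 3), against 11.3, 10.7 and 6.65 on chromosome 18 and 11.1, 10.4 and 6.57 on all autosomes. The beta cluster had 0.924, 0 and 0.462, and the alpha cluster 5.74, 4.42 and 3.09. The gamma cluster had 13.1, 10.2 and 8.76, and the 100 kb after it 25.5, 24.5 and 13.3, the highest of the region in each replicate. The beta promoters stood in a stretch of 259542 bp with 2, 0 and 1 other peaks in replicates 1, 2 and 3.

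In the alpha cluster, 6 of the 7 shared regions away from starts lay after the last variable start, in the part that holds the constant exons. Enhancers of the alpha genes are known to lie in and after this part. The strongest were at 37178476 to 37178645, next to the start of the transcript Gm10544, with scores of 86, 61 and 76 in replicates 1, 2 and 3, and at 37172336 to 37172485, in an exon of the antisense gene Gm38097, with 77, 65 and 75. A pair lay 5917 and 7157 bp after the start of Pcdhac2, with 70, 58 and 43, and with 60, 53 and 31. In the last constant exon, 37184946 to 37187657, a region at 37186896 to 37187045 scored 54 and 43 in replicates 1 and 2 and had no peak in replicate 3.

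Between the alpha and beta clusters, a strong site lay at 37218256 to 37218405, 46608 bp before Pcdhb1. It scored 128, 120 and 90 in replicates 1, 2 and 3, above every alpha and beta promoter in each replicate. Its neighbour at 37217356 to 37217545 scored 72, 59 and 35. A hotspot of 1425 bp in replicate 1 and of 1489 bp in replicate 3 covered both, and these were the widest hotspots of the region away from start sites. Between beta and gamma the shared regions were a pair in an exon of the lincRNA 3222401L13Rik, 5893 and 6153 bp before Pcdhga1, with scores of 58, 50 and 58, and of 84, 47 and 42.

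In the gamma cluster, 7 of the 9 shared regions followed the start of Pcdhgc5, the last variable exon. From 37824256 to 37826765, around the first constant exon at 37825021 to 37825079, 6 of them stood in a row. The first scored 98, 82 and 76 and the last 110, 96 and 67 in replicates 1, 2 and 3, and the region over the exon itself scored 70, 56 and 55. Before the C-type genes a site 5374 bp upstream of Pcdhgc3 scored 84, 73 and 46, below Pcdhgc3 itself in each replicate. Further on, a site at 37836656 to 37836805 scored 105 and 102 in replicates 1 and 2 and had no peak in replicate 3. The region just before it, 37836236 to 37836525, scored 80 and 83 in replicates 2 and 3 and had no peak in replicate 1.

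The strongest sites of the region away from start sites came after the gamma cluster, in introns of Diaph1, a formin gene on the opposite strand. The site at 37880236 to 37880405 scored 142, 133 and 121, close to Pcdhgc3. The others among the 5 highest-ranked were at 37883616 to 37883765 (126, 120 and 82), 37849616 to 37849785 (126, 118 and 74) and 37877356 to 37877505 (124, 119 and 76), with the site between alpha and beta. Wide hotspots also lay here, of 1298 bp at 37852001 to 37853298 in replicate 1, of 1116 bp at 37851863 to 37852978 in replicate 3, and of 1051 bp at 37883429 to 37884479 in replicate 1. Which gene any of these sites acts on cannot be read from position.

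The CTCF consensus was searched in the same sites. It was in 6 of 71 peaks away from start sites in replicate 1 (8.45%), 5 of 59 in replicate 2 (8.48%) and 5 of 45 in replicate 3 (11.1%), against 4.26%, 4.26% and 4.78% of all peaks. These shares rest on 5 or 6 peaks each. All peaks include those at start sites, and the share over peaks away from start sites in the whole genome was not computed. Among the strongest promoter peaks of the members it was in 0 of 51, 1 of 49 and 0 of 27, against 2.35%, 2.36% and 2.12% over all genes.

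Among genes whose products act on the clusters, and among the genes beside them, several scored above the median gene with a promoter peak. That median was 122, 113 and 113 in replicates 1, 2 and 3, and the upper quartile was 137, 132 and 129. Ctcf and Smchd1 lay between these values in each replicate. Ctcf scored 130, 125 and 128, and Smchd1, which encodes a silencing protein that acts on the clusters, scored 128, 118 and 128. Taf7, a gene for a general transcription factor subunit that lies between beta and gamma, scored 138, 132 and 114, and Diaph1, after gamma, 139, 139 and 135. Slc25a2, between beta and gamma, had no peak.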

How the data were processed

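DNase-seq peaks and hotspots of 3 replicates of 1 group were used as deposited, on mm10. Per the deposited file descriptions, each list was made from the filtered alignments of its own library plus 1 further file. For the aligner, the caller, their versions and the read filters, nothing is stated in the sources used here. The deposited value of a peak is a score, a whole number from 1 to 150, and that of a hotspot is a −log10 q, capped at 100, which 51.4%, 48.3% and 43.9% of hotspots reached in replicates 1, 2 and 3. Repeated peak positions were removed (21, 20 and 23).

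A promoter peak overlapped by at least 1 bp the window of 1 kb either side of the first annotated start (GENCODE M21). GENCODE gives 2 genes the symbol Pcdha11, and the one starting at 37005203 is called Pcdha10, its RefSeq name on the same build. The strongest promoter peak was ranked among those of all genes of its replicate. Peaks of replicates overlapping by at least 1 bp were merged into regions. Clusters were compared with an exact sign-flip permutation test over replicates, with Benjamini-Hochberg adjustment over 3 comparisons, and nothing else was tested. Motif letters were searched on both strands of mm10 in Python 3.11.15 (numpy 2.4.6, matplotlib 3.10.9), and the steps recovered what was planted in simulated data.

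The text names the C-type genes, the 5 highest-ranked members of each cluster, members without a peak in some or all replicates (up to 10 by name), the 5 highest-ranked regions in all replicates and the 5 widest hotspots over 1 kb away from starts; other regions were named after their values were seen. Members and lists were chosen with earlier results of these data known. Sequences are not printed.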

Additional observations from a re-analysis of the deposited data

How the results depend on the processing

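No paired analysis was possible because the series has 1 group, so replicate numbers pair no samples across groups. The differences between clusters were taken within each replicate. Of the alternative values computed, 69 kept their direction or stayed within the spread, 12 moved and 1 reversed. For the CTCF and REST shares the spread was a 95% binomial interval over the 58 members. That interval treats members as independent, which neighbouring genes of similar sequence are not. Taking equal numbers of peaks lowered the share of promoters with a peak to 42.5% over all members, 21.4% in alpha, 36.4% in beta and 62.1% in gamma, and the density of other peaks to 4.50 per 100 kb. The strongest 50% of peaks gave 21.3%, 19.0%, 12.1% and 31.8%, turned alpha minus beta to 6.93 points and left 21 regions in all replicates. These settings hold fewer peaks by construction. Leaving out 1 replicate gave shares of 65.5% to 86.2% over all members, 35.7% to 57.1% in alpha, 63.6% to 95.5% in beta and 81.8% to 95.5% in gamma, and differences of -38.3 to -25.3 points for alpha minus beta, -50.6 to -38.3 for alpha minus gamma and -22.7 to 0 for beta minus gamma. Regions in all remaining replicates ranged from 34 to 53. A window of 1 kb in place of 300 bases raised the share of members with a CTCF match from 0 to 15.5%. Windows of 500 or 2500 bp, hotspots in place of peaks, every transcript start, and the nearest start alone moved no share or difference between clusters beyond the spread between replicates. Hotspots, every transcript start and the nearest start alone returned the main values unchanged, and these values are counted among the 69. The word GGCGCTG, at 37.9% of members, and the printing of per-replicate values at equal peak numbers were added after seeing the data. Depth is unknown, so a missing peak does not show closed chromatin.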
